A study of Mus musculus with 12 samples.

Results

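Cxcr2, Cxcr4, Cxcl12, Cxcl2 and Selplg, genes of the signals that hold neutrophils in bone marrow or let them leave it, were measured in whole bone marrow of mice. They were selected by name, and each matched 1 row among the 24415 genes of the count table. The mice were female C57BL/6J animals aged 8 weeks, and every animal received antibody, first 12 h before injury, then at injury and daily until the marrow was collected on day 7. Of the 12 RNA-seq libraries, 4 came from flame-burned mice given an antibody against G-CSF (burn anti-G-CSF, replicates 9 to 12), 4 from flame-burned mice given isotype antibody (burn isotype, replicates 5 to 8) and 4 from sham-injured mice given isotype antibody (sham isotype, replicates 1 to 4). The G-CSF antibody was thus studied only in burned mice, and its effect in sham mice was not analysed here. Whether the 4 libraries of a group are 4 different mice is not stated in the labels, and the spread behind the p-values may thus be technical.

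G-CSF is the cytokine that drives neutrophil production and their exit from marrow. Marrow stromal cells, mainly the CXCL12-abundant reticular cells, and endothelium release the chemokine CXCL12, which holds neutrophils in the marrow through their receptor CXCR4. CXCR2, the receptor for CXCL1, CXCL2 and related chemokines, appears as neutrophils mature and opposes that retention, so that cells with active CXCR2 enter the blood. Selplg encodes PSGL-1, a glycoprotein of myeloid and lymphoid cells that binds selectins during rolling on vessel walls. CXCR4 is not particular to neutrophils and is also made by B lineage, T and other marrow cells.

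Cxcr2 (Entrez 12765) lies on the plus strand of chromosome 1 at chr1:74153994-74161246 of mm10, and Cxcr4 (Entrez 12767) on the minus strand of the same chromosome at chr1:128588199-128592299. Cxcl12 (Entrez 20315) lies on the plus strand at chr6:117168535-117181368, Cxcl2 (Entrez 20310) on the plus strand at chr5:90903899-90905938 and Selplg (Entrez 20345) on the minus strand at chr5:113817798-113830501. The receptor promoters are shown because the 2 receptor genes gave different patterns across the 3 groups. Each line holds the 250 bases before the RefSeq start of the gene (GRCm38.p6, read 5′ to 3′ on the strand of the gene), chr1:74153744-74153993 for Cxcr2 and chr1:128592300-128592549 for Cxcr4, with motif matches in capitals.
Cxcr2: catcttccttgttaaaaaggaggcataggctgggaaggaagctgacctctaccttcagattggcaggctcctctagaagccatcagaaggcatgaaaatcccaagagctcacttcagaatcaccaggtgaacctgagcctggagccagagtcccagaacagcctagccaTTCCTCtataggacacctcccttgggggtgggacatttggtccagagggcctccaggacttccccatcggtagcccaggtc
Cxcr4: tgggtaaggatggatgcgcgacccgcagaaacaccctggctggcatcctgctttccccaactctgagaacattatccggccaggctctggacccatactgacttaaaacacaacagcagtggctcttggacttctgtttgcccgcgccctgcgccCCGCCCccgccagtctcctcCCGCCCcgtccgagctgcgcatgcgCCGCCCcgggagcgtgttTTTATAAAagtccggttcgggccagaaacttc

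Both strands were searched for the TATA box (letters TATAAA), a STAT site (letters TTCNNNGAA), the C/EBP core (letters TTGCNNAA), the GC box (letters CCGCCC) and the PU.1 core (letters GAGGAA). The Cxcr2 window held 1 match, the PU.1 core read on the opposite strand as TTCCTC, 81 to 76 bases before the start. The Cxcr4 window held 3 GC boxes, the nearest 50 to 45 bases before the start, and TATAAA 30 to 25 bases before it, which overlaps its own match on the opposite strand, TTTATA. Of 32851 mouse promoter windows of this length 23.3% held the PU.1 core, 32.7% the GC box, 12.4% the TATA box, 9.56% the C/EBP core and 7.02% the STAT site. The Cxcr2 window was 54.4% GC with 1 CpG and the Cxcr4 window 61.2% GC with 19 CpGs, against medians of 52.4% and 6 CpGs over all windows. A match describes the letters only.

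Total counts ran from 18780399 to 25708084 per library, and levels are given as CPM, each count scaled to the total of its library after that total was multiplied by its TMM factor (0.894 to 1.07, edgeR). Every list of neutrophil, monocyte, lymphoid, erythroid, stromal and endothelial markers was detected with 0 genes at 0 in a whole group, and so were the lists of brain, heart muscle and lens markers. A set of 14 brain markers summed to 806 to 1509 CPM in burn anti-G-CSF, 473 to 902 CPM in burn isotype and 536 to 627 CPM in sham isotype marrow. The 8 heart muscle markers summed to 733 ± 258 CPM in burn anti-G-CSF, 397 ± 158 CPM in burn isotype and 319 ± 28.3 CPM in sham isotype marrow (SD, n = 4 each). Lens markers summed to 194 ± 75.3 CPM in burn anti-G-CSF, 108 ± 40.8 CPM in burn isotype and 82.4 ± 9.07 CPM in sham isotype marrow. Results of burn anti-G-CSF are also given without replicates 9 and 12 where this matters, which leaves replicates 10 and 11 in that group. The effect of this smaller group on the calls was not tested. Replicates 9 and 12 were left out because they held most brain, heart and lens RNA. The part of this RNA in the results was not tested beyond those values and a fit with a brain score (the mean log2 CPM of 15 brain markers) as a covariate. That score ran from 5.38 to 6.25 in burn anti-G-CSF, 4.22 to 5.45 in burn isotype and 4.75 to 5.0 in sham isotype marrow. It did not overlap between burn anti-G-CSF and sham isotype, so group and score can hardly be told apart in that comparison.

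Cxcr2 separated all 3 groups. It was lowest in burned mice given anti-G-CSF, highest in burned mice given isotype antibody, and in between in sham mice, with no overlap between any 2 groups. The values were 112, 157, 204 and 174 CPM in burn anti-G-CSF marrow (replicates 9, 10, 11 and 12), 567, 646, 513 and 511 CPM in burn isotype marrow (replicates 5 to 8) and 320, 284, 331 and 308 CPM in sham isotype marrow (replicates 1 to 4). Every burn anti-G-CSF library was below every sham library, and every burn isotype library was above them. The means were 162 ± 38.5 CPM in burn anti-G-CSF, 559 ± 63.5 CPM in burn isotype and 310.4 ± 20.2 CPM in sham isotype marrow (SD, n = 4 each).

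Genes were tested with edgeR's quasi-likelihood F test over all 15283 genes that passed the expression filter, with Benjamini-Hochberg adjustment, and called at an adjusted p under 0.05. Cxcr2 rose in burn isotype against sham isotype by 0.85 ± 0.14 on the log2 scale (± SE; adjusted p = 0.000406; 95% interval 0.56 to 1.14). With anti-G-CSF it fell against burn isotype by 1.79 ± 0.14 on the log2 scale (adjusted p = 1.81e-07, edgeR), a mean level 0.289 times that of burn isotype. Against sham isotype it fell in burn anti-G-CSF by 0.94 ± 0.14 (adjusted p = 0.00392, edgeR), to 0.521 times the sham mean. Without replicates 9 and 12 it still fell against sham, by 0.78 on the log2 scale (adjusted p = 0.0074). Adding the brain score to the fit gave -0.71 with an adjusted p of 0.324 for that comparison. Many genes moved in this design. In burn isotype against sham isotype 21.0% of all tested genes were called (11.1% higher and 9.92% lower), and the groups did not overlap for 24.7% (12.9% higher and 11.8% lower). In burn anti-G-CSF against burn isotype 34.6% were called (17.7% higher and 16.9% lower), and 28.9% did not overlap (13% higher and 16% lower). For burn anti-G-CSF against sham isotype, 11% of genes were called (7.09% higher and 3.91% lower), and 17.0% did not overlap (10.1% higher and 6.96% lower). The number called in burn anti-G-CSF against sham isotype was 1681 genes with all libraries, but 386, 443, 1067, 548, 349 and 496 without replicate 1, 2, 3, 4, 9 and 12. Of the 5 genes, 4 passed the expression filter, and of these 4, 2 were called in burn isotype against sham isotype, 3 in burn anti-G-CSF against burn isotype and 3 in burn anti-G-CSF against sham isotype.

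**Figure D1:**
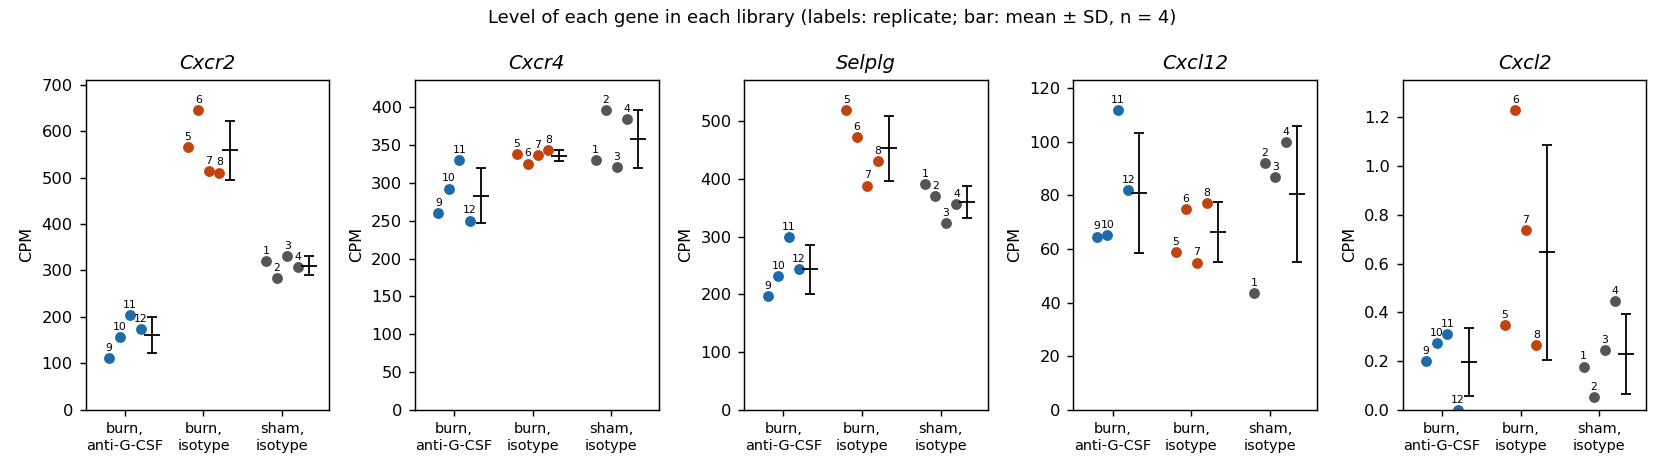
CPM of each of the 5 genes in every library (1 point per library, bar at the mean with SD, n = 4 each), with burn anti-G-CSF left of burn isotype and sham isotype. Cxcr2 spans 112 to 204 CPM in burn anti-G-CSF, 511 to 646 CPM in burn isotype and 284 to 331 CPM in sham isotype marrow, while Cxcr4 and Cxcl12 overlap between the groups.

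The fold changes of Cxcr4 were smaller. Its values were 260, 293, 330.3 and 250.2 CPM in burn anti-G-CSF marrow, 339, 326, 337 and 344 CPM in burn isotype marrow and 331, 397, 321 and 384 CPM in sham isotype marrow. The groups overlapped in each comparison, and replicates 12 and 9, which held most brain RNA, were the lowest of all libraries. The burn isotype libraries lay close together, with an SD of 7.68 CPM, while the SD was 36.3 CPM in burn anti-G-CSF and 37.8 CPM in sham isotype marrow.

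Burn isotype and sham isotype gave a log2 fold change of -0.09 ± 0.09 for Cxcr4 (adjusted p = 0.555, edgeR), with a 95% interval from -0.29 to 0.10. Burn anti-G-CSF against burn isotype gave -0.25 ± 0.09 (adjusted p = 0.0458, edgeR) and against sham isotype -0.34 ± 0.09 (adjusted p = 0.0288, edgeR), so both passed the threshold, by little. Neither held without replicates 9 and 12, where the log2 fold changes were -0.10 (adjusted p = 0.549) against burn isotype and -0.20 (adjusted p = 0.472) against sham isotype. The call against burn isotype was also lost without any 1 of replicates 2 to 10 and 12 (log2 -0.26 to -0.18, adjusted p = 0.0553 to 0.176), and that against sham isotype without replicate 1, 2, 4, 9 or 12 (-0.38 to -0.28, adjusted p = 0.0534 to 0.109). With the brain score the adjusted p was 0.391 against burn isotype and 0.873 against sham isotype. With library size as the only scaling the log2 fold change against burn isotype was -0.07. B lineage markers, from cells that also make CXCR4, summed to 1005 ± 179.7 CPM in burn anti-G-CSF, 518 ± 111 CPM in burn isotype and 1109 ± 67.8 CPM in sham isotype marrow (SD, n = 4 each), and their part in the Cxcr4 level was not tested.

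Because Cxcr2 and Cxcr4 come from the same library, their count ratio is free of the scaling. It was 0.431, 0.537, 0.618 and 0.694 in burn anti-G-CSF marrow, 1.67, 1.99, 1.52 and 1.49 in burn isotype marrow and 0.967, 0.715, 1.03 and 0.801 in sham isotype marrow. On the log2 scale the mean was -0.83 ± 0.30 in burn anti-G-CSF, 0.73 ± 0.19 in burn isotype and -0.20 ± 0.24 in sham isotype marrow (SD, n = 4 each), with no overlap between the groups. Counts of Cxcr2 exceeded those of Cxcr4 in 0 of 4 burn anti-G-CSF libraries, 4 of 4 burn isotype libraries and 1 of 4 sham isotype libraries. No test was made of this ratio, because the genes were chosen with results of these data known, and counts of different genes also depend on their lengths.

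**Figure D2:**
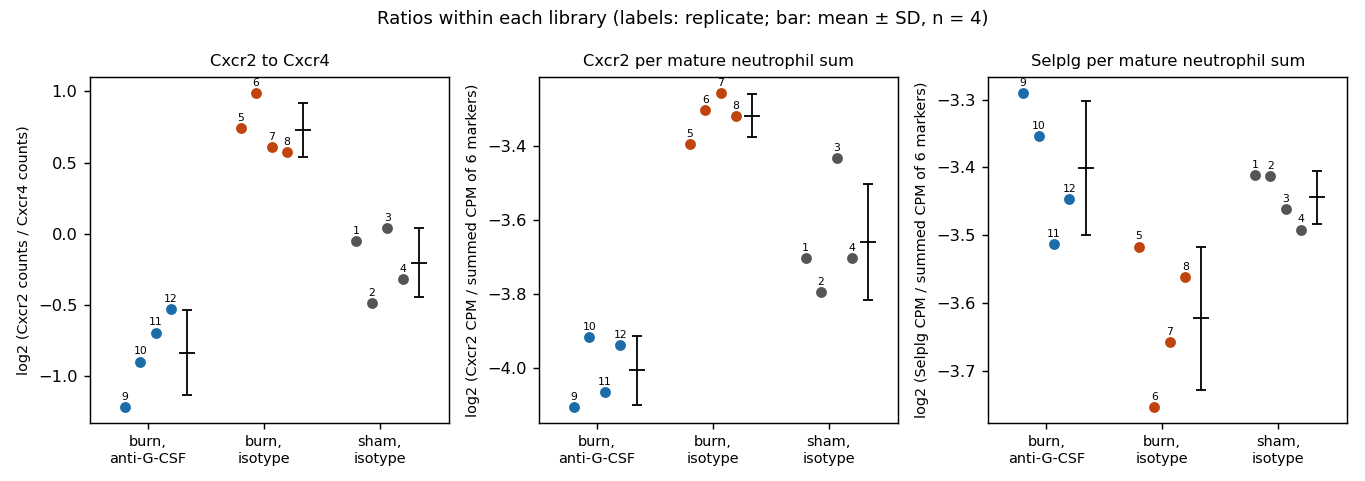
Log2 ratios per library of Cxcr2 to Cxcr4 counts, and of Cxcr2 and Selplg to the summed CPM of 6 mature neutrophil markers (1 point per library, labelled by replicate, bar at mean ± SD, n = 4 each), with burn anti-G-CSF left of burn isotype and sham isotype. Cxcr2 to Cxcr4 averages -0.83 in burn anti-G-CSF, 0.73 in burn isotype and -0.20 in sham isotype marrow.

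Most neutrophil markers moved in the same directions as Cxcr2. Of the 6 mature markers 4 were called higher in burn isotype against sham isotype, where 11.1% of all tested genes were. In burn anti-G-CSF, 5 of the 6 were called lower against burn isotype and 5 against sham isotype. The shares of all tested genes called lower there were 16.9% and 3.91%. Calls against sham isotype were not firm. All genes called lower there numbered 598, but 17 without replicates 9 and 12 and 5 with the brain score. Mmp8, a mature marker, lost its call in both of these fits and without replicate 1, 2, 3, 4 or 9. For the other mature markers these fits are not reported here. Among the 6 mature markers Ccl6 and Il1b were exceptions. Ccl6 averaged 301 ± 103 CPM in burn anti-G-CSF, 371 ± 85.5 CPM in burn isotype and 456 ± 79.5 CPM in sham isotype marrow and was called in no comparison. Il1b averaged 11.4 ± 2.14 CPM in burn anti-G-CSF, 52.5 ± 23.1 CPM in burn isotype and 51.5 ± 9.27 CPM in sham isotype marrow (SD, n = 4 each) and was not called in burn isotype against sham isotype (adjusted p = 0.96, edgeR). The 6 mature neutrophil markers (Csf3r, Mmp8, Retnlg, Il1b, Ccl6 and Stfa2l1) summed to 1927 to 3422 CPM in burn anti-G-CSF, 4901 to 6370 CPM in burn isotype and 3570 to 4164 CPM in sham isotype marrow. Retnlg and Mmp8 made up most of this sum. They averaged 1227 and 808 CPM in burn anti-G-CSF, 2719 and 1752 CPM in burn isotype and 1804 and 1134 CPM in sham isotype marrow. A ratio to this sum is thus mainly a ratio to these genes. The 6 immature neutrophil markers summed to means of 14062 CPM in burn anti-G-CSF, 40135 CPM in burn isotype and 21867 CPM in sham isotype marrow. Fewer neutrophils and less RNA per neutrophil cannot be told apart in bulk marrow. Set over the mature marker sum, Cxcr2 did not overlap between the groups: the ratio was 0.0623 ± 0.00405 in burn anti-G-CSF, 0.1004 ± 0.00398 in burn isotype and 0.0795 ± 0.00904 in sham isotype marrow (SD, n = 4 each). This depended on the marker sum chosen. Over the immature neutrophil sum the groups overlapped in all 3 comparisons, with differences in mean log2 ratio of -0.03 in burn isotype against sham isotype, -0.30 in burn anti-G-CSF against burn isotype and -0.33 in burn anti-G-CSF against sham isotype. Over the neutrophil progenitor and monocyte sums, burn isotype and sham isotype overlapped (0.23 and 0.09), and burn anti-G-CSF lay below both other groups. Cxcr4, set over the progenitor, immature, mature and monocyte sums, differed by -0.70, -0.96, -0.59 and -0.84 log2 in burn isotype against sham isotype. In burn anti-G-CSF against burn isotype the differences were 0.71, 1.26, 0.87 and 0.49. Groups did not overlap in either comparison. Against sham isotype, burn anti-G-CSF gave 0.01, 0.30, 0.28 and -0.35, with overlap over each sum. CXCR4 is also made by cells outside these lists. These ratios are descriptions, and neither Cxcr2 nor Cxcr4 was tested relative to any marker sum.

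Selplg, the gene of PSGL-1, followed the pattern of Cxcr2 in smaller measure. It had 197, 232, 299.8 and 244 CPM in burn anti-G-CSF marrow, 520.1, 473, 388 and 431 CPM in burn isotype marrow and 391, 370.1, 324 and 356 CPM in sham isotype marrow. The anti-G-CSF libraries were below all libraries of the other groups, while burn isotype replicate 7 lay below sham isotype replicate 1. The rise in burn isotype against sham isotype was 0.33 ± 0.11 log2 (adjusted p = 0.0484, edgeR) and was lost without replicate 1, 2, 3, 4, 5, 6, 8, 10 or 12 (0.26 to 0.37, adjusted p = 0.0514 to 0.169). With anti-G-CSF Selplg fell by 0.90 ± 0.11 against burn isotype (adjusted p = 1.26e-05, edgeR) and by 0.57 ± 0.11 against sham isotype (adjusted p = 0.0107, edgeR). The fall against sham isotype was lost without replicates 9 and 12 (log2 fold change -0.44, adjusted p = 0.192) and with the brain score (-0.35, adjusted p = 0.759). Set over the mature neutrophil sum, Selplg was 0.0948 ± 0.00647 in burn anti-G-CSF, 0.0814 ± 0.00587 in burn isotype and 0.0919 ± 0.00249 in sham isotype marrow (SD, n = 4 each), so the order of these means was not that of Cxcr2. Selplg, too, depended on the sum chosen. Over the immature, progenitor and monocyte sums burn anti-G-CSF differed from burn isotype by 0.61, 0.06 and -0.16 log2, without overlap only over the immature sum. From sham isotype it differed by 0.06, -0.23 and -0.59, without overlap only over the monocyte sum. Burn isotype lay below sham isotype without overlap over every sum. These ratios were not tested. Monocyte markers, from cells that also make PSGL-1, summed to 1629 ± 234 CPM in burn anti-G-CSF, 2728 ± 435 CPM in burn isotype and 1606 ± 146 CPM in sham isotype marrow (SD, n = 4 each), and their part in the Selplg level was not tested. Across the 12 libraries Cxcr2 and Selplg had r = 0.96 and Cxcr2 and Cxcr4 r = 0.59, over libraries that share their group structure. Once the group means were removed, r was 0.75 for Cxcr2 and Selplg and 0.22 for Cxcr2 and Cxcr4.

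**Figure D3:**
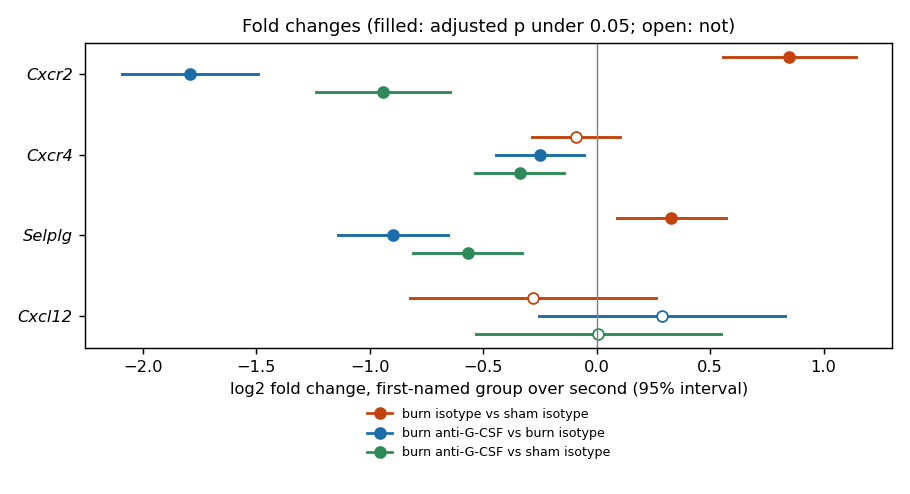
Log2 fold changes (point) and 95% intervals (line) of the 4 tested genes in the 3 comparisons, from edgeR, filled where called. In burn anti-G-CSF against burn isotype Cxcr2 is at -1.79 and Selplg at -0.90, while the intervals of Cxcl12 cross 0 in all 3.

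Cxcl12, the retention chemokine, passed the test in none of the 3 comparisons, and its groups overlapped in each. It had 64.6, 65.0, 111.9 and 81.9 CPM in burn anti-G-CSF marrow, 58.8, 74.8, 54.9 and 76.9 CPM in burn isotype marrow and 43.4, 92.0, 86.6 and 99.9 CPM in sham isotype marrow. The log2 fold changes were -0.28 ± 0.25 in burn isotype against sham isotype (adjusted p = 0.501, edgeR), 0.29 ± 0.25 in burn anti-G-CSF against burn isotype (adjusted p = 0.399, edgeR) and 0.01 ± 0.25 in burn anti-G-CSF against sham isotype (adjusted p = 0.991, edgeR). The 95% intervals were -0.82 to 0.26 in burn isotype against sham isotype, -0.25 to 0.83 in burn anti-G-CSF against burn isotype and -0.53 to 0.55 in burn anti-G-CSF against sham isotype. Sham replicate 1, which was lowest for Cxcl12, was also the lowest sham library for the marrow stroma markers (149 CPM, against 173 to 186 CPM in the other 3). Cxcl12 was lower there by more than that sum was. Set over the sum, Cxcl12 was 0.291 in sham replicate 1 and 0.502, 0.502 and 0.537 in replicates 2, 3 and 4. Runx2 alone averaged 68.8 CPM of the mean sum of 172.7 CPM in sham isotype marrow. Whether the sum follows the amount of stroma was not tested.

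**Figure D4:**
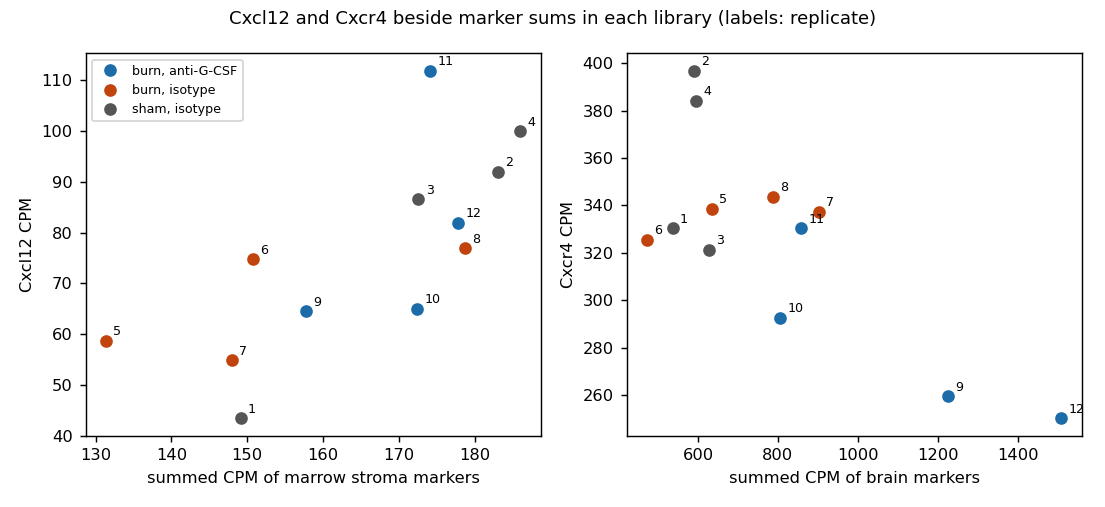
Cxcl12 CPM against the summed CPM of 16 marrow stroma markers (left) and Cxcr4 CPM against the summed CPM of 14 brain markers (right), 1 point per library. Sham replicate 1 is lowest for Cxcl12 at 43.4 CPM, and replicates 9 and 12, with 1227 and 1509 CPM of brain markers, are lowest for Cxcr4.

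Cxcl2, a chemokine that attracts neutrophils through CXCR2, was near the detection limit. Its counts were 4, 6, 7 and 0 in burn anti-G-CSF libraries, 8, 24, 17 and 6 in burn isotype libraries and 4, 1, 5 and 9 in sham isotype libraries, and it failed the expression filter. The means were 0.196 ± 0.138 CPM in burn anti-G-CSF, 0.645 ± 0.442 CPM in burn isotype and 0.230 ± 0.165 CPM in sham isotype libraries (SD, n = 4 each). An amount of 3 counts, the limit that a count of 0 allows, equals 0.121 to 0.154 CPM on this scale. An exact 2-sided permutation test over the 70 assignments gave p = 0.143 for burn isotype against sham isotype, 0.0857 for burn anti-G-CSF against burn isotype and 0.8 for burn anti-G-CSF against sham isotype, or 0.214, 0.214 and 0.8 after Benjamini-Hochberg adjustment over the 3. The smallest p this design allows is 0.0286. Tested without the filter, edgeR gave log2 fold changes of 1.46 ± 0.83 for burn isotype against sham isotype (adjusted p = 0.297), -1.70 ± 0.84 for burn anti-G-CSF against burn isotype (adjusted p = 0.145) and -0.24 ± 0.87 for burn anti-G-CSF against sham isotype (adjusted p = 0.928).

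Divided by exon length to compare genes, Cxcr4 had the highest mean in all 3 groups. The length was that of all annotated exons of a gene together, 3.048 kb for Cxcr2 and 1.808 kb for Cxcr4. The gene models used for counting are not given, so the order of genes is uncertain where it depends on these lengths. Before division, burn isotype marrow had means of 559 CPM for Cxcr2 and 336 CPM for Cxcr4. In CPM per kilobase of exon, burn anti-G-CSF marrow had 157 for Cxcr4, 56.9 for Selplg, 53.0 for Cxcr2, 9.89 for Cxcl12 and 0.0945 for Cxcl2, where the ranges of Selplg and Cxcr2 over libraries overlap. Burn isotype marrow had 186 for Cxcr4, 183 for Cxcr2, 106 for Selplg, 8.12 for Cxcl12 and 0.312 for Cxcl2, with Cxcr4 and Cxcr2 overlapping. Sham isotype marrow had 198 for Cxcr4, 102 for Cxcr2, 84.4 for Selplg, 9.85 for Cxcl12 and 0.111 for Cxcl2, with no overlap between neighbours in that order.

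Genes around these 5 were taken from 5 lists, each with its number of called genes and its median log2 fold change. The median of all tested genes was 0.00 in burn isotype against sham isotype, 0.08 in burn anti-G-CSF against burn isotype and 0.00 in burn anti-G-CSF against sham isotype. Of all tested genes, 11.1% were called higher and 9.92% lower in burn isotype against sham isotype. These shares were 17.7% and 16.9% in burn anti-G-CSF against burn isotype, and 7.09% and 3.91% in burn anti-G-CSF against sham isotype. List counts near these shares say little about a list, and no list was tested as a set. The receptor signalling list held 18 genes for G proteins, kinases, arrestins and their partners downstream of chemokine receptors. It had 12 called higher and 1 lower in burn isotype against sham isotype (median 0.36), 1 higher and 15 lower in burn anti-G-CSF against burn isotype (median -0.56), and 0 higher and 8 lower in burn anti-G-CSF against sham isotype (median -0.28). That count of 8 became 2, 2, 4, 3, 1, 5 and 3 without replicate 1, 2, 3, 4, 9, 10 and 12, and ran from 1 to 12 over all single libraries left out. Arrb2, the β-arrestin that desensitises chemokine receptors, rose by 0.69 ± 0.08 log2 in burn isotype against sham isotype (adjusted p = 2.74e-05, edgeR) and fell by 1.16 ± 0.08 with anti-G-CSF against burn isotype (adjusted p = 3.88e-08, edgeR). It averaged 192 ± 19.8 CPM in burn anti-G-CSF, 430.1 ± 37.7 CPM in burn isotype and 267 ± 9.86 CPM in sham isotype marrow (SD, n = 4 each). Fgr, a Src-family kinase of myeloid cells, rose by 0.77 ± 0.10 in burn isotype against sham isotype (adjusted p = 6.31e-05, edgeR) and fell by 1.11 ± 0.11 in burn anti-G-CSF against burn isotype (adjusted p = 4.91e-07, edgeR). In burn anti-G-CSF against sham isotype, Arrb2 fell by 0.47 ± 0.08 (adjusted p = 0.00658), Rac2, a GTPase of neutrophil movement, by 0.45 ± 0.10 (adjusted p = 0.0147) and Rgs18, which dampens G-protein signals, by 0.32 ± 0.07 (adjusted p = 0.0149, all edgeR). The Rac2 call was lost without replicate 1, 2 or 9 (adjusted p = 0.0507 to 0.0534) and the Rgs18 call without replicate 1 or 9 (adjusted p = 0.0536 and 0.055).

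Of the chemokine relatives, 8 of 10 genes passed the filter, Cxcl1 and Cxcl3 being the exceptions. Of the 8, 0 were called higher and 1 lower in burn isotype against sham isotype (median -0.13). In burn anti-G-CSF against burn isotype, 2 were called higher and 1 lower (median 0.27). With a single library left out, that count of 2 ran from 1 to 3. In burn anti-G-CSF against sham isotype, 1 was called higher and 1 lower (median 0.02). Both of these ran from 0 to 1 with a single library left out. Cxcr1, a chemokine receptor closely related to Cxcr2, averaged 0.488 ± 0.418 CPM in burn anti-G-CSF, 3.53 ± 0.286 CPM in burn isotype and 1.73 ± 0.810 CPM in sham isotype marrow. It fell by 2.82 ± 0.53 log2 in burn anti-G-CSF against burn isotype (adjusted p = 0.000557, edgeR). Against sham isotype it fell by 1.79 ± 0.54 (adjusted p = 0.0417, edgeR), a call lost without replicate 1, 2, 3, 4, 5, 8, 9, 10 or 12 (adjusted p = 0.0537 to 0.147). Burn isotype against sham isotype gave 1.03 ± 0.48 (adjusted p = 0.148, edgeR). Ackr1, the Duffy receptor that binds chemokines without signalling and is made by red cell precursors, fell by 0.61 ± 0.15 in burn isotype against sham isotype (adjusted p = 0.00618, edgeR) and rose by 0.76 ± 0.15 in burn anti-G-CSF against burn isotype (adjusted p = 0.000704, edgeR). Erythroid markers summed to 8852 ± 1932 CPM in burn anti-G-CSF, 4116 ± 598 CPM in burn isotype and 7773 ± 260.1 CPM in sham isotype marrow (SD, n = 4 each), and their part in Ackr1 was not tested. Ackr3, the scavenger receptor of CXCL12, averaged 3.53 ± 1.51 CPM in burn anti-G-CSF, 1.67 ± 0.472 CPM in burn isotype and 1.62 ± 0.564 CPM in sham isotype marrow. It rose in burn anti-G-CSF by 1.07 ± 0.35 against burn isotype (adjusted p = 0.0247, edgeR), a call lost without replicate 5, 6 or 12 (adjusted p = 0.0618 to 0.111). That difference was 0.63 without replicates 9 and 12 (adjusted p = 0.298, edgeR) and 0.38 with the brain score (adjusted p = 0.597, edgeR), and in both the count called higher against burn isotype was 1 in place of 2. It also rose by 1.12 ± 0.35 against sham isotype (adjusted p = 0.0485, edgeR), a call lost without replicate 1, 2, 3, 4, 5, 8, 9 or 12 (adjusted p = 0.0541 to 0.205). Mif gave -0.15 ± 0.09 in burn isotype against sham isotype (adjusted p = 0.248) and Cxcl15 1.46 ± 0.78 in burn anti-G-CSF against sham isotype (adjusted p = 0.259).

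Of 15 selectins and genes that build selectin ligands, 4 were called higher and 2 lower in burn isotype against sham isotype (median 0.22), 3 higher and 8 lower in burn anti-G-CSF against burn isotype (median -0.36) and 0 higher and 1 lower in burn anti-G-CSF against sham isotype (median -0.11), the 1 becoming 0 to 2 with a single library left out. Cd44, an adhesion receptor that can bind E-selectin, rose by 0.50 ± 0.10 in burn isotype against sham isotype (adjusted p = 0.00173, edgeR) and fell by 0.84 ± 0.10 in burn anti-G-CSF against burn isotype (adjusted p = 6.55e-06, edgeR). Against sham isotype it fell by 0.34 ± 0.10 (adjusted p = 0.039, edgeR), a call lost without replicate 1, 2, 4, 9, 10 or 12 (adjusted p = 0.0686 to 0.129). St3gal6, a sialyltransferase for selectin ligands, fell by 0.80 ± 0.13 in burn isotype against sham isotype (adjusted p = 0.000217, edgeR) and rose by 0.76 ± 0.13 in burn anti-G-CSF against burn isotype (adjusted p = 0.000157, edgeR). C1galt1c1, the chaperone of a core 1 O-glycan enzyme, rose by 0.77 ± 0.14 in burn isotype against sham isotype, and Tpst2, a tyrosine sulphotransferase, fell by 0.63 ± 0.11 in burn anti-G-CSF against burn isotype. Selp, encoding P-selectin, had -0.43 ± 0.18 in burn anti-G-CSF against sham isotype and did not pass the threshold (adjusted p = 0.146, edgeR).

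Of 13 integrins and partners, 5 were called higher and 3 lower in burn isotype against sham isotype (median 0.13), 3 higher and 5 lower in burn anti-G-CSF against burn isotype (median 0.00) and 0 higher and 1 lower in burn anti-G-CSF against sham isotype (median -0.10), the 1 becoming 0 to 2 with a single library left out. Itgam, the αM chain, rose by 0.87 ± 0.11 in burn isotype against sham isotype and fell by 1.28 ± 0.11 in burn anti-G-CSF against burn isotype (adjusted p = 1.72e-07, edgeR). Against sham isotype it fell by 0.41 ± 0.11 (adjusted p = 0.0268, edgeR), a call lost without replicate 1, 2, 3, 4, 9 or 12 (adjusted p = 0.0541 to 0.08). Itgb2, the β2 chain with which it pairs, rose by 0.64 ± 0.13 in burn isotype against sham isotype and fell by 1.02 ± 0.13 in burn anti-G-CSF against burn isotype. Vcam1, an adhesion molecule of stroma and macrophages that can hold marrow cells, fell by 0.84 ± 0.10 in burn isotype against sham isotype (adjusted p = 2.74e-05, edgeR) and rose by 0.69 ± 0.10 in burn anti-G-CSF against burn isotype (adjusted p = 5.41e-05, edgeR).

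The list of proteases that can act on retention signals, with inhibitors of proteases, held 11 genes. Of these, 7 were called higher and 1 lower in burn isotype against sham isotype (median 0.63). In burn anti-G-CSF against burn isotype, 2 were called higher and 7 lower (median -1.0). In burn anti-G-CSF against sham isotype, 0 were called higher and 6 lower (median -0.32). That count of 6 became 2 without replicate 1, 2, 4 or 9 and 3 without replicate 12, and ran from 2 to 6 over all single libraries left out. Prtn3, a neutrophil serine protease, rose by 1.11 ± 0.11 in burn isotype against sham isotype (adjusted p = 6.81e-06, edgeR) and fell by 1.28 ± 0.11 in burn anti-G-CSF against burn isotype (adjusted p = 1.94e-07, edgeR). Serpinb1a, an inhibitor of such proteases, rose by 0.81 ± 0.10 in burn isotype against sham isotype and fell in burn anti-G-CSF by 1.30 ± 0.10 against burn isotype and by 0.49 ± 0.10 against sham isotype. Ctsg, cathepsin G, rose by 0.65 ± 0.10 in burn isotype against sham isotype, and Slpi, a secreted protease inhibitor, fell in burn anti-G-CSF by 1.20 ± 0.12 against burn isotype and by 0.71 ± 0.12 against sham isotype. Mmp8, the neutrophil collagenase, fell by 0.49 ± 0.13 in burn anti-G-CSF against sham isotype (adjusted p = 0.0243, edgeR), a call lost without replicate 1, 2, 3, 4 or 9 (adjusted p = 0.0511 to 0.0765). None of the calls of burn anti-G-CSF against sham isotype in the 5 lists held without replicates 9 and 12 or with the brain score, and the total number called fell to 35 and 15 genes. Without replicates 9 and 12 the group holds only replicates 10 and 11, and the effect of fewer libraries on the calls was not tested. Arrb2 was at -0.43 without replicates 9 and 12 (adjusted p = 0.115, edgeR) and -0.37 with the brain score (adjusted p = 0.498, edgeR). Slpi was at -0.65 without replicates 9 and 12 (adjusted p = 0.0547, edgeR) and -0.51 with the brain score (adjusted p = 0.466, edgeR). Some of these genes belong to neutrophils, and the part of cell numbers in the list counts was not tested. Elane, Prtn3 and Ctsg were also in the neutrophil progenitor marker list, and Mmp8 was in the mature neutrophil list. The protease counts are thus not independent of the marker counts.

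**Figure D5:**
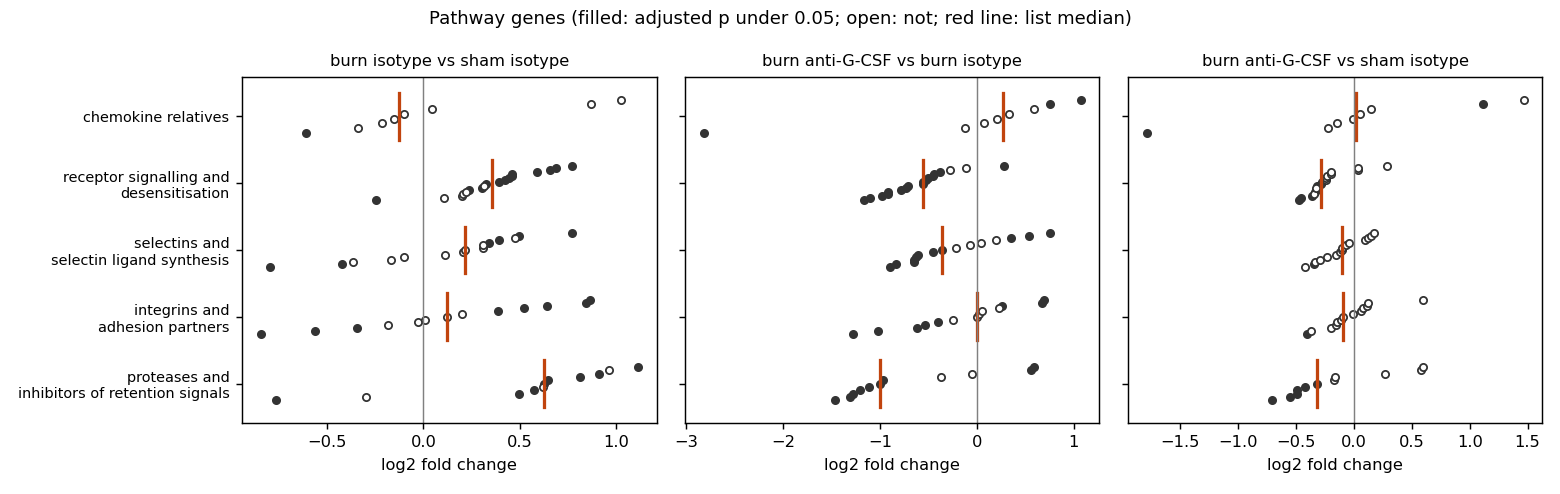
Log2 fold changes of the genes of the 5 lists in the 3 comparisons (1 point per tested gene, filled where called at an adjusted p under 0.05, red line at the list median). The receptor signalling list holds 12 genes called higher in burn isotype against sham isotype and 15 called lower in burn anti-G-CSF against burn isotype. Of all tested genes 11.1% and 16.9% were called in these directions.

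Over the 12 libraries, the genes whose log2 CPM most resembled Cxcr2 were Dach1, Slc2a3, Sepn1, Pfkfb4 and Stfa2l1, with r from 0.991 to 0.992 over all libraries and from 0.882 to 0.969 once the group means were removed. For Cxcr4 they were Hip1r, Satb1, N4bp2l1, Zfp36l2 and Zbtb39, with r from 0.88 to 0.918, for Selplg Rhog, Hcls1 and Gmfg, with r from 0.987 to 0.99, and for Cxcl12 Lpp, Ddit4 and Cdc14b, with r from 0.813 to 0.899. Once the group means were removed, r was 0.724 to 0.868 for the Cxcr4 genes, 0.940 to 0.967 for Selplg and 0.803 to 0.934 for Cxcl12. The genes named had the highest r of 9817 genes searched, a choice that favours high values. The libraries share group structure, so these values describe likeness among these 12 libraries only.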

How the data were processed

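RNA from whole bone marrow was polyA-selected and made into directional, dUTP-marked libraries, per the labels' protocols, which also name rRNA- and globin-depleted RNA as possible input. The authors deposited raw counts, with 1 column per library (0 other columns of samples). The submitters' processing notes name TopHat2 and mm10; how reads were counted, with which strand option and which gene models, is not given in the sources used here, and counts of overlapping genes are therefore uncertain. Gene starts are 0-based in the table, and 1 was added. Of 24415 symbols 27 had become dates and were restored by identifier, and 11 were blank. All 165 list genes were found, 2 by an older symbol.

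Counts were tested with edgeR 4.0.16 in R 4.3.3 (filterByExpr, TMM, robust quasi-likelihood F test, 2-sided, 1 mean per group over 12 libraries, 9 residual degrees of freedom, Benjamini-Hochberg over 15283 genes, called at 0.05). The fit was also run on simulated counts with planted changes, whose outcome is not given here. Those counts did not model the brain, heart and lens RNA. Cxcl2 failed the filter, so an exact permutation test of its CPM, chosen after seeing the data, replaced the planned edgeR test. Exon lengths came from GENCODE M21, and promoters from RefSeq GRCm38.p6, in which 4 of the 5 genes matched. Replicate pairs within groups differed beyond sampling noise (chi-square per degree of freedom 6.02 to 33.6 over 18 pairs). Alternatives used DESeq2 1.42.0 and limma 3.58.1; permutations used scipy 1.17.1 in Python 3.11.15.

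The 5 genes, the lists and the tests were chosen with earlier results of these data known. Named genes are the 5 members, the 3 tested genes with the smallest p in each list and comparison, and the 5 (Cxcr2, Cxcr4) or 3 genes most correlated with a member among genes whose mean log2 CPM reached 3, leaving out unnamed models and antigen receptor segments. Some genes that this rule names are not reported here. The brain score used 1 marker more than the brain marker sum. No correlation was computed for Cxcl2. Intervals and floors cover counting error or the spread between libraries, not other error.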

Additional observations from a re-analysis of the deposited data

Results flagged for a closer look

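In the search for a single library far from the other 3 of its group, 60 groups of 4 libraries were examined, of which chance flags about 1 in 20. Sham isotype replicate 2 had the highest summed B lineage markers, 1211 CPM, against 1067 to 1082 CPM in the other 3 sham libraries, a gap of 0.895 of the group's range. Sham isotype replicate 4 had the highest summed T and NK markers, 225 CPM, against 155 to 157 CPM in the others, a gap of 0.971. No value of Cxcr2, Cxcr4, Cxcl12, Cxcl2 or Selplg stood apart in this way.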

How the results depend on the processing

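No paired analysis was made because the labels give no pairing between libraries of the 3 groups. The falls of Cxcr2 and Selplg in burn anti-G-CSF against burn isotype kept their direction and call in all 24 alternatives run for each. Without 1 library at a time, the log2 fold changes in burn isotype against sham isotype were 0.77 to 0.89 for Cxcr2, 0.26 to 0.40 for Selplg, -0.15 to -0.05 for Cxcr4 and -0.49 to -0.17 for Cxcl12. In burn anti-G-CSF against burn isotype they were -1.91 to -1.63 for Cxcr2, -0.998 to -0.79 for Selplg, -0.32 to -0.18 for Cxcr4 and 0.11 to 0.39 for Cxcl12. In burn anti-G-CSF against sham isotype they were -1.07 to -0.80 for Cxcr2, -0.68 to -0.48 for Selplg, -0.42 to -0.28 for Cxcr4 and -0.20 to 0.13 for Cxcl12. That last value of Cxcl12 changed sign with DESeq2 size factors (-0.0125), the DESeq2 test (-0.0140), without replicate 1 (-0.20) and without replicate 11 (-0.18).

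The Selplg call in burn isotype against sham isotype ended with library size as the only scaling (0.22, adjusted p = 0.107) and with limma-voom (0.33, adjusted p = 0.0555). The Cxcr4 call in burn anti-G-CSF against burn isotype ended with library size (-0.0687), upper quartile scaling (-0.18), only the compared groups (-0.27), the brain score (-0.17) and without replicates 9 and 12 (-0.10). The Cxcr4 call against sham isotype ended with library size (-0.26), upper quartile (-0.29), the brain score (-0.25) and without replicates 9 and 12 (-0.20). Against sham isotype, the calls of Cxcr2 (-0.71) and Selplg (-0.35) ended with the brain score, and that of Selplg (-0.44) also without replicates 9 and 12. At an adjusted p of 0.01, Selplg in burn isotype against sham isotype (0.33), Cxcr4 against burn isotype (-0.25) and, against sham isotype, Cxcr4 (-0.34) and Selplg (-0.57) were not called. Against a 1.5-fold change these 4 were not called either, nor was Cxcr2 in burn isotype (0.85) or burn anti-G-CSF (-0.94) against sham isotype. The causes were not tested.

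In burn isotype against sham isotype 1691 genes were called higher and 1516 lower. Library size alone gave 1276 and 2846, an adjusted p of 0.01 gave 1127 and 841, and the 1.5-fold test 76 and 17. Without 1 library the counts were 1275 to 1761 higher and 1077 to 1679 lower. The counts for burn anti-G-CSF against burn isotype were 2703 higher and 2582 lower. Library size gave 5762 and 1673, the brain score 1276 and 1483, and the 1.5-fold test 84 and 480. Higher genes numbered 1602 with only the compared groups, 1280 without replicates 9 and 12 and 1208 at an adjusted p of 0.01. Without 1 library the counts were 1639 (without replicate 5) to 3045 higher and 2103 to 2671 lower. For burn anti-G-CSF against sham isotype they were 1083 higher and 598 lower. These became 18 and 17 without replicates 9 and 12, 10 and 5 with the brain score, 50 and 92 at an adjusted p of 0.01 and 2 and 0 in the 1.5-fold test. Lower genes numbered 376 with library size and 1007 with the DESeq2 test. Without 1 library the counts were 148 to 1414 higher and 177 to 857 lower. Library size moved the median log2 fold change of all genes to -0.10 in burn isotype against sham isotype and 0.26 in burn anti-G-CSF against burn isotype, and upper quartile scaling moved the second to 0.15.

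The difference in mean Cxcl2 CPM between burn anti-G-CSF and sham isotype, -0.0341, changed sign without replicate 4 (0.0378), without replicate 12 (0.0311) and without replicates 9 and 12 (0.0616), and ran from -0.0937 to 0.0378 without 1 library. Of 1077 values of the named list genes, 960 kept their call and direction, 108 lost the call, 9 gained it and 0 changed sign. Of 720 list counts 587 stayed within 1.5 times. Depth limits Cxcl2, at 0 to 24 counts per library. The permutation test of Cxcl2 and the marker sums were added after seeing the data.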
